A study of Caenorhabditis elegans with 4 samples.

Results

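The regions described here are sites on the X chromosome of the nematode Caenorhabditis elegans where ChIP-seq peaks of UNC-30 and of UNC-55, both transcription factors, overlapped. A site is a UNC-30 peak on X that shared at least 1 bp with a UNC-55 peak, together with its UNC-55 partner. There were 395 such sites among the 709 UNC-30 peaks on X (55.7%) and among 2875 UNC-30 peaks in all, and 400 of the 671 UNC-55 peaks on X were their partners. The sites were chosen by the overlap of the peak positions in the 2 lists, so this share and the features that overlap fixes are given as a description, without a test. Over the 5 autosomes, 55.1% of UNC-30 peaks met a UNC-55 peak, so the share on X was close to that elsewhere.

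The peaks come from ChIP-seq, the sequencing of DNA recovered together with a protein of interest, of whole L2 larvae of strain GSH100, grown at 22 or 25 °C on OP50 bacteria, with beads that bind GFP. There was 1 ChIP library for UNC-30 and 1 for UNC-55, and 1 input library without antibody for each. The labels give the same strain name for all 4 samples and neither the tagged construct nor the cells that carry it. No value here therefore has a replicate check, and no difference between sites and other peaks carries a p-value. Shares are printed with exact binomial 95% intervals, which reflect the number of peaks, pairs, genes or spaces between genes counted and nothing else. Neighbouring genes can share a site, so the genes counted are not always independent. The deposited lists give positions alone, so read depth, peak height and the values of the inputs are unknown here, and a peak missing from a list cannot be read as absent binding. Because whole animals were used, the cells in which either factor was bound, and whether both were bound in the same cell, cannot be told from these lists.

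UNC-30 is a homeodomain protein of the Pitx family that specifies the D-type motor neurons, the inhibitory neurons that release GABA onto body muscle. UNC-55, a COUP-TF type nuclear receptor, works in the VD neurons among them, where it prevents the synaptic rewiring that the sister DD class undergoes in the larva. A site held by both factors is thus a place where the general identity factor and the subtype factor of the same neurons were both recovered, although each list was made from all tissues.

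Each site was nearly always a simple pair. In 390 sites the UNC-30 peak had 1 UNC-55 partner, in 5 sites it had 2, and no UNC-55 partner met more than 1 UNC-30 peak. In the 390 simple pairs the centres lay a median of 25 bp apart, which is finer than the 50 bp bins of the lists, and 276 pairs (70.8%, interval 66.0 to 75.2%) had centres within 50 bp. Counted along X, the centre of UNC-55 came after that of UNC-30 in 153 pairs and before it in 161, and both were equal in 76, so neither side prevailed. Among simple pairs on the autosomes the share with centres within 50 bp was 76% (interval 73.5 to 78.4%), and the 2 intervals overlap.

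The UNC-55 peak was the smaller member of most pairs. It was narrower in 265 of the 390 pairs, wider in 74 and equal in 51, and it lay wholly inside the UNC-30 peak in 257 pairs (65.9%, interval 61.0 to 70.6%). The UNC-30 peak lay inside the UNC-55 peak in 68 pairs, and 20 pairs with identical ends are counted both ways. Over all sites 107 kb was common to both factors, or 65.2% of the bases under the UNC-30 peaks and 88.9% of those under their UNC-55 partners. The overlap at a site ran from 50 to 1200 bp with a median of 250 bp and quartiles of 150 and 350 bp.

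**Figure D1:**
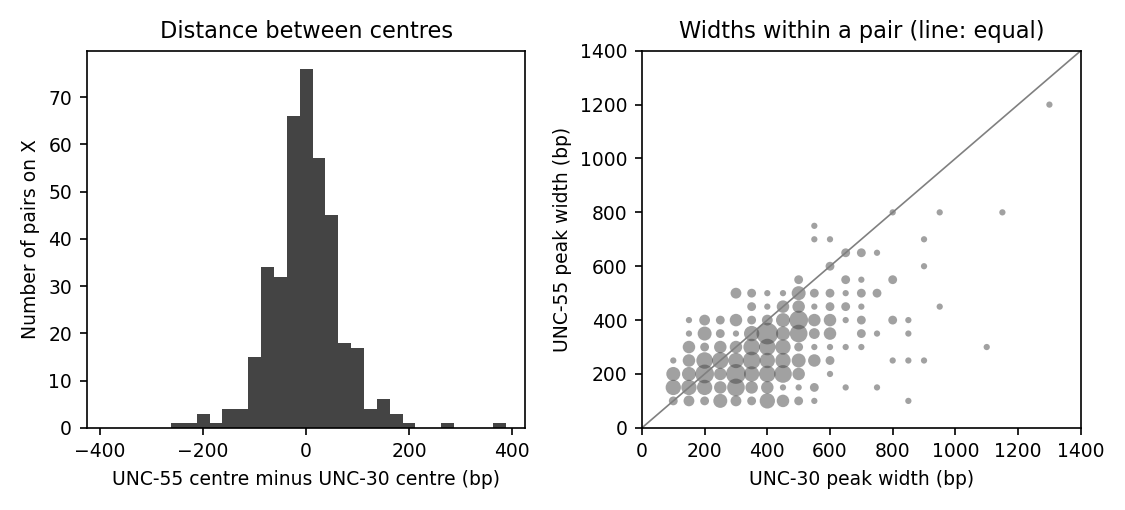
Simple pairs of 1 UNC-30 and 1 UNC-55 peak on X (n = 390). Left, number of pairs by the position of the UNC-55 centre minus that of the UNC-30 centre in bp, where most pairs fall within 50 bp of 0. Right, width of the UNC-55 peak against that of the UNC-30 peak in bp, with the dot area proportional to the number of pairs, where 265 pairs lie under the line of equal widths.

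Sites of both factors had wide UNC-30 peaks. The UNC-30 peaks of the 395 sites were 100 to 1850 bp wide with a median of 400 bp (quartiles 250 and 500 bp), and the 314 UNC-30 peaks of X without a UNC-55 peak had a median of 250 bp (quartiles 150 and 300 bp, range 100 to 850 bp). The UNC-55 partners had a median of 300 bp (quartiles 200 and 400 bp), against 200 bp (quartiles 150 and 275 bp) for the 271 UNC-55 peaks alone. A wide peak can meet another more easily, so the rule itself bears on width. How much of this difference follows from the rule was not tested. The UNC-30 widths of the X sites matched those of the 1194 autosomal sites of both factors, which had the same median of 400 bp and the same quartiles.

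On X the shared part of the UNC-30 list was larger for wider peaks, up to 450 bp, and then level. It was 27.9% for peaks of 100 to 150 bp (38 of 136, interval 20.6 to 36.3%), 37.3% at 200 to 250 bp (62 of 166) and 58.1% at 300 to 400 bp (125 of 215, interval 51.2 to 64.8%). At 450 to 600 bp it was 88.3% (121 of 137, interval 81.7 to 93.2%), and at 650 bp or more it was 89.1% (49 of 55, interval 77.8 to 95.9%). The UNC-55 list ran from 42.1% at 100 to 150 bp (77 of 183) through 71.4% at 300 to 400 bp (137 of 192) to 86.7% at 650 bp or more, where only 15 peaks entered.

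**Figure D2:**
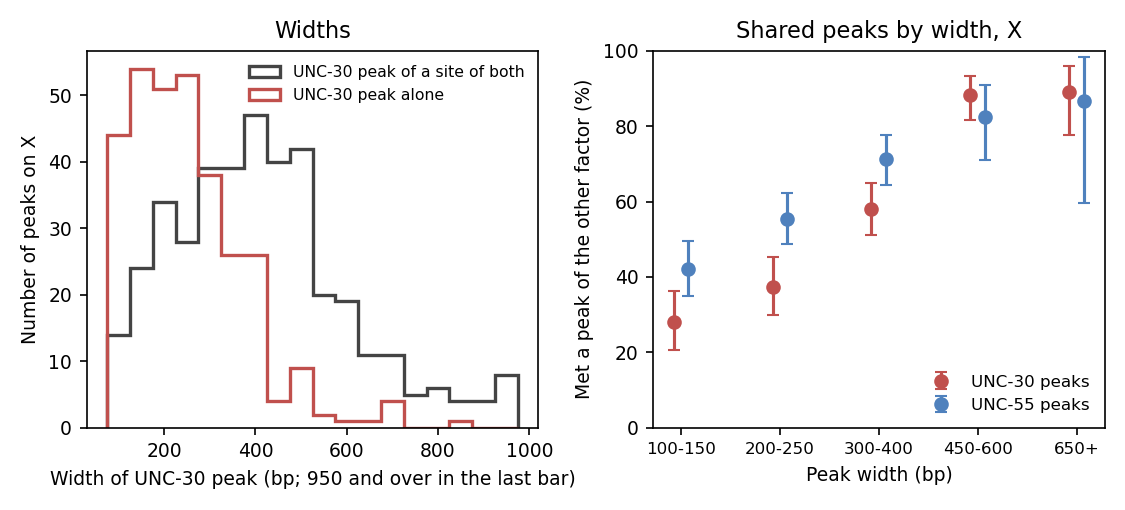
Left, number of UNC-30 peaks on X by width in bp, for the 395 peaks of sites of both factors and the 314 without a UNC-55 peak; the last bar collects widths of 950 bp and over. Right, percent of the X peaks of each list that met a peak of the other list, by width in bp, with exact binomial 95% intervals, which rises from 27.9 to 89.1% for UNC-30.

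At the edge of the rule, 13 sites overlapped by a single bin of 50 bp. The widest of them were the UNC-30 peak at chrX:843101-843450, which touched a UNC-55 peak at chrX:843401-843550, and that at chrX:6971251-6971600, with a partner at chrX:6971201-6971300. Just outside the rule, 3 UNC-30 peaks abutted a UNC-55 peak with a gap of 0 bp, at chrX:1524601-1524700, chrX:6263301-6263400 and chrX:14976751-14977100. Within 500 bp of a UNC-55 peak lay 27 of the 314 unshared UNC-30 peaks, and their median gap to the UNC-55 list was 4475 bp. The boundary therefore ran through few peaks.

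The sites were spread along the whole of X. Its left, middle and right parts, of equal length, held 135 (34.2%), 132 (33.4%, interval 28.8 to 38.3%) and 128 sites (32.4%). On the autosomes 44.1% of the sites of both factors (527 of 1194, interval 41.3 to 47%) lay in the middle part, an interval that does not overlap that of X. In the middle part of X lay 29.6% of UNC-30 peaks alone and 37.3% of UNC-55 peaks alone. Autosomal peaks of a single factor were not placed, so whether the contrast is particular to sites of both factors was not tested. X carried 22.4 sites per Mb and the autosomes 14.5. The shared part of the UNC-30 peaks was nearly the same, 55.7% on X and 55.1% on the autosomes. All UNC-30 peaks were therefore denser on X in a similar proportion, so this density is not particular to sites of both factors. Each of 17 full windows of 1 Mb held 11 to 33 sites, the median being 24. Most were at chrX:4000001-5000000 with 33, followed by chrX:2000001-3000000 with 30 and chrX:7000001-8000000 with 28. The emptiest were chrX:1000001-2000000 and chrX:9000001-10000000, with 11 each.

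The shared part of the UNC-30 peaks varied little between these windows. It ran from 47.8% at chrX:9000001-10000000 (interval 26.8 to 69.4%, 11 shared and 12 alone) to 64.3% at chrX:11000001-12000000 (interval 48.0 to 78.4%, 27 shared and 15 alone), and the intervals of these extremes overlap. In the window with most sites it was 49.3%, from 33 shared and 34 unshared UNC-30 peaks. The longest stretch without a site was chrX:11666801-12038650, of 371850 bp, in which 5 UNC-30 peaks and 7 UNC-55 peaks stood alone. Neighbouring sites lay a median of 20800 bp apart (quartiles 4825 and 58450 bp).

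**Figure D3:**
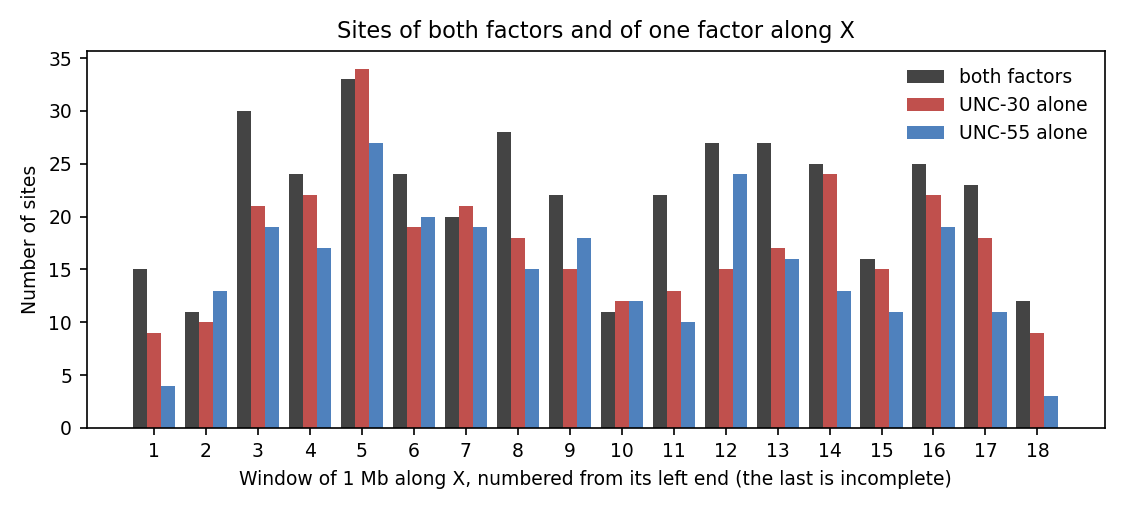
Number of sites of both factors, UNC-30 peaks alone and UNC-55 peaks alone in each window of 1 Mb along X, numbered from its left end; the last window is incomplete. Sites of both factors number 11 to 33 in the complete windows, with window 5 the fullest.

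Some sites came in groups. Another site lay under 2000 bp away for 93 of the 395 sites (23.5%, interval 19.4 to 28%), a share close to that of autosomal sites of both factors (23.7%, interval 21.3 to 26.2%). A UNC-30 peak alone lay that near to 78 sites (19.7%) and a UNC-55 peak alone to 48 (12.2%). Joined at gaps under 2000 bp, the sites formed 302 singles, 34 groups of 2, 7 groups of 3 and 1 group of 4. Of the 93 grouped sites, 43 (46.2%, interval 35.8 to 56.9%) lay inside a protein-coding gene by the reckoning given next, and of the 302 single sites, 80 (26.5%, interval 21.6 to 31.8%). Sites of a group can share a gene and are then not independent, so the first interval is too narrow, and the difference was not tested.

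To name genes, the peaks were set against a gene table of assembly WBcel235, since the sources used here name no build for the lists. Peak centres of X avoided protein-coding genes, and this avoidance served to register the lists on the table. As deposited, 34.2% of the centres of the 395 sites fell in a protein-coding gene. With a shift of 5000 bp added or subtracted the share was 59.5 or 60%, and it was lowest, at 33.9%, with 100 bp added. For all 1380 X peaks the lowest share was also reached at 100 bp, and it was reached at 100, 100 and 200 bp in the left, middle and right parts of X. The lists therefore lay within 300 bp of WBcel235 by this measure all along X, although the exact build was not settled. A gene is called next to a site only when its entry came within 2000 bp of the UNC-30 peak for every shift from -300 to 300 bp in steps of 100 bp, and a site is called inside or between genes only when its centre stayed so for every such shift. The table has no strand, so upstream and downstream cannot be told apart, and being next to a gene does not show that the gene is regulated.

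**Figure D4:**
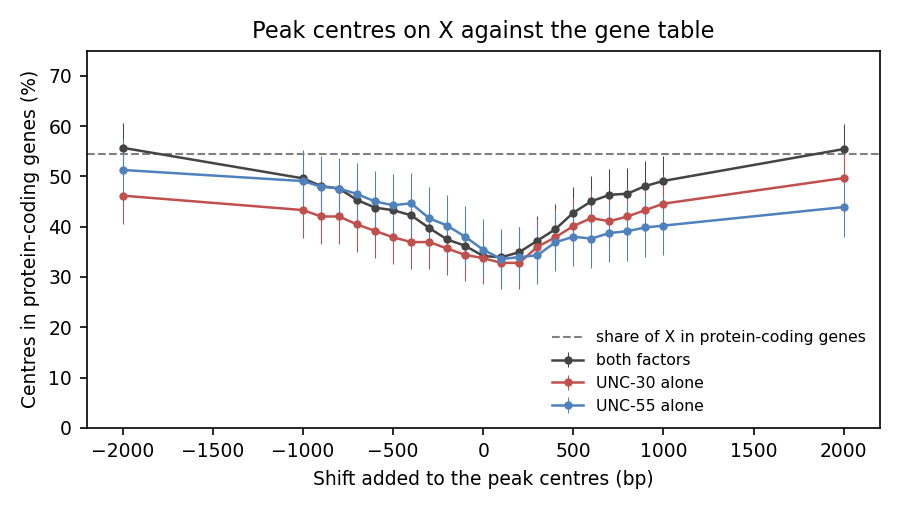
Percent of peak centres of X that fall in a protein-coding gene of the WBcel235 table, after adding the shift on the horizontal axis in bp, for sites of both factors (n = 395), UNC-30 peaks alone (n = 314) and UNC-55 peaks alone (n = 271), with exact binomial 95% intervals; the dashed line is the 54.4% of X that lies in such genes. All 3 curves are lowest between 0 and 200 bp.

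Sites of both factors lay mostly between genes. Of the 395 sites, 213 (53.9%, interval 48.9 to 58.9%) lay between protein-coding genes, 123 (31.1%, interval 26.6 to 36%) inside one, and for 59 the answer changed with the shift. Protein-coding genes took up 54.4% of X, so at the deposited positions there were 32.4 sites per Mb between genes and 14.1 per Mb inside them, a ratio of 2.30. This ratio was 2.34 for UNC-30 peaks alone and 2.18 for UNC-55 peaks alone, close to that of sites of both factors. For autosomal sites of both factors it was 2.81. The intervals of narrow and wide sites overlapped, since 27% of sites of 100 to 250 bp (interval 18.6 to 36.8%) and 32.9% of those of 450 bp or more (interval 25.9 to 40.6%) lay inside a gene.

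Long spaces between genes held most of these sites, in proportion to their length. The 213 sites between genes occupied 178 intervals with a median length of 7383 bp, while the median over all 2388 intervals between protein-coding genes on X was 1813 bp. A site was found in 8.02% of intervals of 2001 to 5000 bp (49 of 611) and in 31.9% of those over 10000 bp (59 of 185, interval 25.2 to 39.1%). Per Mb of interval, with the 300 bp of tolerance at each end left out, the numbers were 32.2 and 31.6 sites, and 30.4 at 5001 to 10000 bp. The density was thus nearly constant from short to long intervals.

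Few peaks of X lay at genes for transfer RNA, and most of those were UNC-30 peaks alone. Peaks were counted when centred 300 bp or less from the middle of 1 of the 276 tRNA genes of X. These were 3 of the 395 sites (0.759%, interval 0.157 to 2.20%), 17 of the 314 UNC-30 peaks alone (5.41%, interval 3.19 to 8.53%) and 1 of the 271 UNC-55 peaks alone (0.369%). How much of X lies that near to a tRNA gene was not computed, so a low share at sites of both factors was not tested. Of the 20 UNC-30 peaks of X so placed, 3 were shared with UNC-55 (15%, interval 3.21 to 37.9%), where the share over X was 55.7%. That interval holds the 27.9% of X UNC-30 peaks of 100 to 150 bp. The widths of the 20 peaks were not compared, so a difference apart from width was not tested. In 16 of the 17 peaks alone the centre lay at the lower coordinate, with a median offset of -141.5 bp. How much of that offset is the build and how much the position of the peaks cannot be told apart.

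Of the 395 sites, 312 were next to a protein-coding or miRNA gene and 83 to none. The same count of peaks of a single factor is not given, so whether it differs was not tested. The sites touched 328 of the 2803 such genes of X, or 11.7%, of which 320 code for proteins. UNC-30 peaks alone touched 8.99% of the same genes and UNC-55 peaks alone 7.28%. Of the 328 genes, 264 had 1 site, 49 had 2 and 15 had 3 or more, and 235 had no peak of a single factor beside them. The share was larger among longer genes, from 4.32% of protein-coding genes up to 1000 bp (21 of 486) and 6.85% at 1001 to 2500 bp through 14.1% at 2501 to 5000 bp and 19% at 5001 to 10000 bp to 32.6% over 10000 bp (45 of 138, interval 24.9 to 41.1%). The median gene length of each list is given beside its count for that reason. A list can also hold genes far from its median, and lists were not matched to other genes by length. The lists were chosen with earlier results of these data known, so their shares are descriptions.

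The gene with most sites was mbl-1, which encodes the muscleblind RNA-binding splicing factor. It had 5 sites inside it, with UNC-30 peaks of 450 bp at chrX:16989301-16989750, 400 bp at chrX:16997201-16997600, 850 bp at chrX:16998801-16999650 and 300 bp each at chrX:17000751-17001050 and chrX:17001951-17002250. The last 4 formed the only group of 4 sites. The overlap with UNC-55 was 350 bp in the 400 bp peak and only 100 bp in the 850 bp peak, so width and overlap did not go together within this gene.

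The heterochronic transcription factor lin-14, which sets the timing of larval events and of synaptic rewiring in the DD neurons, had 4 sites inside it. Their UNC-30 peaks lay at chrX:11467151-11467600, chrX:11471001-11471300, chrX:11471851-11472250 and chrX:11472851-11473600, and shared 400, 100, 100 and 650 bp with UNC-55. A further 5 UNC-30 peaks and 3 UNC-55 peaks stood alone in or next to lin-14, so the gene carried sites of all 3 kinds.

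The nuclear receptor gene nhr-40 also had 4 sites inside it, at chrX:2595151-2595600, chrX:2598751-2599250, chrX:2600851-2601400 and chrX:2604401-2605000, with UNC-30 peaks of 450 to 600 bp and no peak of a single factor. Another receptor gene, nhr-3, had 3 sites, of which the one at chrX:14559951-14560600 lay inside it and shared 450 bp. Of the 27 genes on X in the list of nuclear receptors, the protein family of UNC-55 itself, 5 had a site (18.5%, interval 6.3 to 38.1%, median gene length 4093 bp), the others being nhr-1, nhr-27 and nhr-48 with 1 each. UNC-30 peaks alone were next to 2 of the 27 and UNC-55 peaks alone to 4.

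The other genes with 3 sites were of varied kinds. They were mdl-1, a MAD-like helix-loop-helix factor, stn-2, a syntrophin of the dystrophin complex, spc-1, the alpha spectrin of the membrane skeleton, sto-2, a stomatin, ugt-50, a glucuronosyltransferase, unk-1, an Unkempt-type zinc finger protein, eat-17, a Rab GTPase-activating protein, unc-115, acr-9, unc-10 and ZC449.4. The sites of sto-2, unk-1 and eat-17 all lay inside the gene. The widest UNC-30 peak among these was 1250 bp, at chrX:6739751-6741000 next to mdl-1, where 2 UNC-55 peaks of 250 and 350 bp lay within it.

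Among D-type motor neuron and GABA genes, 4 of the 10 on X had a site of both factors (40%, interval 12.2 to 73.8%, median gene length 5580 bp), beside 11.7% of all X genes and 19% of those of 5001 to 10000 bp. They were lin-14, acr-9, dve-1 and acr-12. The gene acr-12 encodes a nicotinic receptor subunit through which D-type neurons receive excitatory input, and its site at chrX:13532401-13532900 shared 350 bp. The related subunit gene acr-9 had 3 sites within chrX:13642701-13646950, with overlaps of 100, 400 and 200 bp. The gene dve-1, for a homeodomain protein of the SATB class, had UNC-30 peaks of 900 bp inside it at chrX:431051-431950 and 650 bp beside it at chrX:434951-435600, but UNC-55 covered only 250 and 150 bp of them.

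The other 6 D-type and GABA genes of X had no site of both factors. The gene hbl-1, a Hunchback-like factor that UNC-55 is known to repress in VD neurons, had 1 UNC-30 peak alone next to it. The neuropeptide gene flp-11 also had 1, and the tyramine receptor gene ser-2 had 2. No peak of any kind was next to alr-1 and lim-6, homeobox genes of GABA neurons, or gbb-1, a subunit of the GABA-B receptor. UNC-30 peaks alone were next to 5 of these 10 genes and UNC-55 peaks alone to 1.

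Genes of transmitter release carried sites in the highest proportion of any list. Of 15 on X, 9 had a site (60%, interval 32.3 to 83.7%), with a median gene length of 4936 bp, near the edge of 2 length classes. Of all protein-coding genes, 14.1% of those of 2501 to 5000 bp had a site and 19% of those of 5001 to 10000 bp. Peaks of a single factor were also next to many of them, UNC-30 peaks alone to 5 of the 15 and UNC-55 peaks alone to 5, beside 8.99% and 7.28% of all X genes. The gene unc-10, for the active zone protein RIM, had 3 sites, of which those at chrX:7276301-7276700 and chrX:7279801-7280150 lay inside it and shared 250 and 300 bp. The gene unc-18, for the syntaxin-binding protein that vesicle fusion needs, had 2 sites at chrX:7681301-7681500 and chrX:7682301-7682650, which lay between genes and count for stn-2 as well.

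The active zone scaffold gene syd-2, a liprin-alpha, had sites at chrX:10548401-10548700 and chrX:10555251-10555700 with overlaps of 300 and 400 bp. The kinase gene sad-1, which acts in presynaptic assembly, had sites of 500 and 550 bp at chrX:13493651-13494150 and chrX:13502101-13502650. The synaptic vesicle protein gene sng-1, a synaptogyrin, had sites at chrX:7326901-7327400 and chrX:7328101-7328450 in which UNC-55 covered the whole UNC-30 peak. The CASK-type scaffold gene lin-2 had 2 sites inside it, and rund-1, dnj-14 and aex-3 had 1 each. The 6 without a site were cat-1, cpx-2, dyn-1, hid-1, nlg-1 and snt-7, of which cat-1, hid-1 and nlg-1 had a peak of a single factor.

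Genes of axon guidance, adhesion and matrix had sites in 13 of 45 cases (28.9%, interval 16.4 to 44.3%, median gene length 5785 bp). Of all protein-coding genes, 19% of those of 5001 to 10000 bp had one and 32.6% of those over 10000 bp. UNC-30 peaks alone were next to 12 of the 45 and UNC-55 peaks alone to 9. The actin-binding axon growth gene unc-115 had 3 sites, of which that at chrX:10146401-10146900 shared 400 bp. The glypican gene lon-2 held one of the most overlapped sites of X, at chrX:4740451-4741400, where 800 of 950 bp were shared. The Robo receptor gene sax-3 and the hemicentin gene him-4 had 2 sites each inside them, and mig-13, a transmembrane protein of cell migration, had 2 beside it in a group of 3 at chrX:4800151-4802800. The Wnt receptor gene lin-18 had 1.

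Ion channel genes had sites in 7 of 27 cases (25.9%, interval 11.1 to 46.3%, median gene length 7671 bp), an interval that holds the 19% of all protein-coding genes of 5001 to 10000 bp. UNC-30 peaks alone were next to 3 of the 27 and UNC-55 peaks alone to 5. The neuronal calcium channel gene unc-2 had 2 sites inside it, at chrX:2731551-2731850 and chrX:2745001-2745400, and the T-type calcium channel gene cca-1 had 2. The chloride channel gene clh-4 had 2 sites next to it, with 950 bp shared in all. The potassium channel genes unc-58, twk-20, twk-23 and twk-26 had 1 each, and that of twk-20 also counts for acr-9. Of the 7 innexin and associated genes on X, which form or gate electrical synapses, 3 had a site (42.9%, interval 9.90 to 81.6%, median gene length 4336 bp), an interval that holds the 14.1% of genes of 2501 to 5000 bp. They were unc-1, unc-7 and unc-9. Each of these sites lay between genes, and 450 of 500 bp were shared at unc-1. Of the same 7 genes, 2 had a UNC-30 peak alone next to them and 3 a UNC-55 peak alone.

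Receptors and G proteins were nearer to the level of all genes. Of 64 genes for G protein-coupled receptors and G protein signalling, 9 had a site (14.1%, interval 6.64 to 25.0%, median gene length 4114 bp). The site with the largest overlap on X lay at rgs-6, a regulator of G protein signalling, where a UNC-30 peak of 1300 bp at chrX:5728651-5729950 held a UNC-55 peak of 1200 bp at chrX:5728701-5729900. The diacylglycerol kinase gene dgk-1 had a site at chrX:992551-993450 with 700 bp shared. The receptor gene seb-3 and the dopamine receptor gene dop-3 had 2 sites each, and gpa-6, a G protein alpha subunit, and npr-16 had 1 each. Of 37 ionotropic receptor genes, 6 had a site (16.2%, interval 6.19 to 32.0%, median gene length 3795 bp), which were acr-9, acr-12, pbo-6, deg-1, lgc-58 and lgc-47.

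For neuropeptide, cuticle, homeobox, other transcription factor and muscle structure genes the shares lay near or under the 11.7% of all X genes. None of the 40 neuropeptide genes of X had a site (interval up to 8.81%), and their median length was 806 bp, a length at which few genes had one. Cuticle genes had a site in 1 of 42 cases (2.38%, interval 0.0603 to 12.6%, median gene length 1352 bp), while UNC-30 peaks alone were next to 9. The gene with the site, dpy-23, was listed for its name and encodes a subunit of the AP2 clathrin adaptor, not a part of the cuticle. It was also among the 9 next to a UNC-30 peak alone, so that count is not of cuticle genes only either. Homeobox genes had a site in 2 of 28 cases (7.14%, interval 0.877 to 23.5%, median gene length 3500 bp), dve-1 and ceh-18. Other transcription factor genes had one in 4 of 40 cases (10%, interval 2.79 to 23.7%, median gene length 2186 bp), lin-14, sma-9, atf-6 and fkh-9, and muscle structure genes in 2 of 19 (10.5%, interval 1.30 to 33.1%, median gene length 2942 bp), stn-2 and act-4. Apart from that of neuropeptide genes, these intervals hold the share of all X genes. The single cAMP pathway gene and the 2 ribosomal protein genes of X had none.

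Heterochronic genes, which time the larval stages, had a site in 3 of 6 cases (50%, interval 11.8 to 88.2%, median gene length 7389 bp), an interval that holds the 19% of genes of 5001 to 10000 bp, and lin-14 counts here and in 2 other lists. UNC-30 peaks alone were next to 2 of the 6 and UNC-55 peaks alone to 3. The casein kinase gene kin-20 had sites of 700 and 150 bp inside it. The microRNA gene let-7 had a site of 300 bp at chrX:14744401-14744700, of which UNC-55 covered 250 bp. Of the 72 microRNA genes of the list, 7 had a site (9.72%, interval 4 to 19%, median gene length 93.5 bp). Among them mir-54, mir-55 and mir-56 share the same 2 sites, at chrX:13144101-13144550 and chrX:13144901-13145500, which also lie inside F09A5.3.

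**Figure D5:**
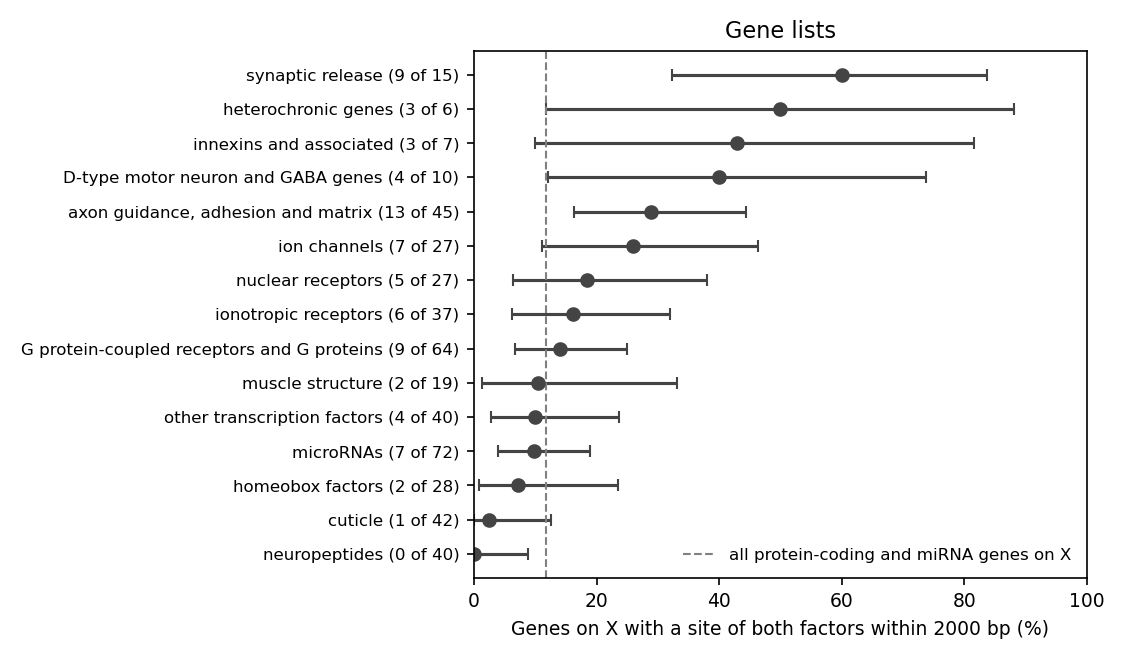
Percent of the genes of each list on X that had a site of both factors within 2000 bp, with the number of genes and exact binomial 95% intervals; lists with under 6 genes on X are left out. The dashed line is the 11.7% over all protein-coding and miRNA genes of X. The list of transmitter release lies highest, at 9 of 15, and neuropeptides lowest, at 0 of 40.

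The remaining sites with large overlap lay in or next to genes of many functions. The widest UNC-30 peak, of 1850 bp at chrX:4980751-4982600 inside both ZC8.6 and lfi-1, held 2 UNC-55 peaks, at chrX:4980901-4981450 and chrX:4981951-4982450. At chrX:10568201-10569000, next to F59F5.7 and to bet-2, a bromodomain gene, the ends of both peaks were identical and 800 bp were shared. At chrX:11605351-11606500 next to ftt-2, a 14-3-3 protein gene, 800 of 1150 bp were shared. The sites at chrX:2852251-2852950, next to the kinase gene kin-29 and the zinc finger gene tra-4, and at chrX:16612151-16612850, next to ain-1 of the microRNA silencing complex, shared 650 bp each. The site at chrX:1021651-1022300 next to F55A4.3 shared 600 bp, as did that of 1250 bp next to mdl-1 and those at chrX:12205351-12205950 next to cab-1 and chrX:15353701-15354350 next to nfki-1.

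The other sites with 2 UNC-55 partners lay at chrX:15189051-15189950 next to T10B10.4, chrX:5031251-5031900 at ZC449.4 and chrX:5209401-5210800 inside H28G03.2, where UNC-55 covered 350 of 1400 bp. The other groups of 3 sites lay at chrX:6737551-6742450 by mdl-1, chrX:10765901-10768600 by sma-9, chrX:11471001-11473600 in lin-14, chrX:12689851-12692050 by adt-1, ugt-50 and mir-62, chrX:13642701-13646950 at acr-9, and chrX:11134651-11138050. The last lay between protein-coding genes with no protein-coding or miRNA gene next to it by the rule used, and its UNC-30 peaks were 600, 450 and 750 bp wide.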

How the data were processed

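Peak lists of 1 UNC-30 and 1 UNC-55 ChIP library were used; the input libraries were not analysed here. The deposited lists hold peak starts and ends only, per the file headers, on a 50 bp grid counted from 0 with the end included; positions are printed counted from 1. For the aligner, the peak caller and its threshold, the use of the input and the build, nothing is given in the sources used here. Sites were called shared from 1 bp of overlap. Gene names came from a RefSeq table of assembly WBcel235; its coordinates are not printed, and a gene counted only where the tie held for every shift from -300 to 300 bp. The members and the 17 gene lists were chosen with earlier results of these data known. Named sites were the 10 with most shared bp and all tied with the last of them, those with 2 or more partners, groups of 3 or more and the edge of the rule; named genes were those with most sites and up to 6 per list by shared bp, except that lists with up to 9 such genes may be named in full. Distances to gene starts and motifs were not run, because the table has no strand and no sequence was at hand. Overlap and gene ties were tested on simulated data. Intervals came from scipy 1.17.1, tables from pandas 2.3.3 and numpy 2.4.6, and plots from matplotlib 3.10.9, under Python 3.11.15.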

Additional observations from a re-analysis of the deposited data

How the results depend on the processing

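Over 26 alternatives, 17 values stayed inside the main 95% interval or, for counts, within 1.5 times of the main count. All values computed with 50% of either peak covered, or with centres 200 bp apart at most, were among these 17. When peaks narrower than 300 bp were dropped from both lists, 43.5% of X UNC-30 peaks were shared in place of 55.7%, their median width was 500 bp in place of 400 bp, and 12.4% of sites had another under 2000 bp away in place of 23.5%; fewer peaks enter by construction. That last share was 11.9% at gaps under 1000 bp and 43.8% under 5000 bp. The middle 1 of 5 equal parts of X held 19% of sites, where the middle 1 of 3 held 33.4%. A gene of any kind lay within 2000 bp of 92.7% of sites, within 500 bp of 66.6%, and a protein-coding gene within 2000 bp of 78.7%. Protein-coding and miRNA genes without any shift, an alternative chosen after seeing the data, gave 80.8%. X has 6021 genes of any kind over 17.6 Mb, so most positions lie near one. The same shares for other peaks or positions of X are not given, so nearness to genes was not tested. Genes of the lists with a site numbered 69 of 467 (14.8%), where 11.7% of all protein-coding and miRNA genes of X had one. Within 1000 bp they numbered 55 (11.8%, beside 8.53% of all such genes). Without any shift they numbered 73 (15.6%, beside 12.3%). Distance to gene starts was not run, since no strand was at hand. No paired analysis was possible because there is a single library per factor, which also leaves no replicate to drop. Depth is unknown.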
